A study of Rattus norvegicus with 180 samples.

Results

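The microRNAs described here are miR-128, miR-132, miR-212, miR-137, miR-138 and miR-153 of the rat, 6 small regulatory RNAs known for their roles in neurons. They were chosen by name from the 717 rat miRNAs on the array, and all 6 were found under those names both in the scanner output and in the normalized table of the study. The miRNAs were measured on 180 single-colour arrays of RNA from male Sprague-Dawley rats aged 10 weeks, with no treatment other than the perfusion. Rats 4, 5 and 6 were perfused with saline to remove the blood and gave 55 organs each, and rats 1, 2 and 3 were not perfused and gave liver, kidney, lung, heart atrium and interventricular septum of the heart. The 8 organs of the central nervous system (CNS) were the cerebral cortex, hippocampus, thalamus, cerebellum, medulla oblongata and the cervical, pectoral and lumbar spinal cord. Another 42 organs lay outside the nervous system, and the eyeball, pituitary gland, adrenal gland, optic nerve and ischial nerve were kept apart from both classes because they hold neurons, axons or neurosecretory cells. Each organ was sampled in 3 separate rats as pieces of tissue rather than sorted cells, with the liver taken from 1 lobe and the intestine, from duodenum to rectum, taken as mucosa scraped from the wall, so that in every result below fewer cells of a type and less RNA per cell cannot be told apart.

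A miRNA is cut from a hairpin transcript and pairs with messenger RNAs mainly through its seed, bases 2 to 8 from the 5′ end, which lowers their stability or translation. In neurons miR-128 dampens excitability, and its hairpins lie in a pair of related host genes. miR-132 and miR-212 are made from a shared transcript that neuronal activity induces through the transcription factor CREB, and miR-132 promotes the growth of dendrites. miR-137 takes part in neuronal maturation and in the release of synaptic vesicles, miR-138 is found in dendrites and limits the size of spines, and miR-153, in the gene of a secretory vesicle protein, targets messages of the synapse such as that of alpha-synuclein.

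The mature sequences are shown because the seed decides which members can share targets. They were read from RefSeq for the rat genome build GRCr8, in which 6 of 6 members were matched by name, and the capitals mark the seed, with each sequence written 5′ to 3′.
rno-miR-128: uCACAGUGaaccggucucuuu
rno-miR-132: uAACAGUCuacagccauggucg
rno-miR-212: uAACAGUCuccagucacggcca
rno-miR-137: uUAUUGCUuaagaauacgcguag
rno-miR-138: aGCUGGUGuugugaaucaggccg
rno-miR-153: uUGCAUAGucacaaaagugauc
Of these only miR-132 and miR-212 have the same seed. They are identical at 17 of 22 positions, so that the 5 differing bases all lie outside the seed.

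The same GRCr8 annotation places mature miR-132 at chr10:60522091-60522112 and mature miR-212 at chr10:60521811-60521832, both on the plus strand with 258 bases between them. miR-128 has a copy at chr13:42251933-42251953 on the plus strand within the span of R3hdm1, and a copy at chr8:120963807-120963827 on the minus strand within the span of Arpp21. miR-137 lies at chr2:209165767-209165789 on the plus strand, within a long non-coding RNA gene. miR-138 has copies at chr8:131178456-131178478 on the plus strand, within 2 long non-coding RNA genes, and at chr19:10680184-10680206 on the minus strand within the span of Slc12a3. miR-153 lies at chr6:144306646-144306667 on the plus strand within the span of Ptprn2. The tables used give gene spans only, so exon or intron is not stated, and the array cannot tell which of 2 genomic copies made a mature miRNA.

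Levels are given as scaled signal, the mean fluorescence of a miRNA's spots after each array was multiplied by a factor (0.334 to 31.1) that brought the 75th percentile of the 37 miRNAs detected on every array to 2118. Signals below 10.8, the median over arrays of the weakest detected miRNA, were set to that floor. The arrays detected 86 to 244 miRNAs (median 161.5), those of the CNS 179 to 238, and no spot was saturated, while the number of arrays per organ limits the precision. Each member was read by 2 probe sequences over 20 spots. Their signals correlated across the 180 arrays at r = 0.996 for miR-128, 0.991 for miR-132, 0.999 for miR-137 and 0.971 for miR-138. The correlation was 0.850 for miR-212 and 0.848 for miR-153, the members detected on the fewest arrays (30 and 25). Brightness differs between probes, so levels are compared between organs for each miRNA and never between miRNAs. On 8 arrays the title names rat 5 and the source name rat 6, and the number in the title was used. These are the arrays of the medulla oblongata, pituitary gland, cervical, pectoral and lumbar cord, and femoris, gastrocnemial and soleus muscle. The brain and cord samples held the neuronal markers miR-124, miR-9 and miR-9*, whose summed signal was 2213 to 21596 on the 24 CNS arrays and at the floor sum of 32.5 in the thymus, skeletal muscles and spleen. By their marker miRNAs the lumbar cord, optic nerve, cervical lymph node, cecum and colon of rat 4 and the hippocampus of rat 5 stood apart from the same organs of the other rats.

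All 6 miRNAs were higher in the CNS than in the organs outside the nervous system (limma, Benjamini-Hochberg adjusted over the 345 miRNAs tested). Of those 345, 40.3% were called higher in the same comparison, and the median difference over all of them was -0.14 on the log2 scale, against 3.89 over the 6. The 5 members other than miR-128 entered the test only through detection in the CNS, pituitary gland, eyeball, adrenal gland or nerves, so the count describes them and adds no weight. A longer list of other neural miRNAs, such as miR-124, miR-9 and miR-219, gave 13 higher of 13 tested, with a median difference of 5.43.

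miR-128 stood apart from the other members by its presence throughout the body. It was detected on 24 of 24 CNS arrays, at 408 to 8912, and on 117 of 126 arrays outside, at 13.3 to 2514, so that the classes overlapped. The mean difference was 4.93 ± 0.064 (SE) on the log2 scale (adjusted p = 1.14e-97), ranking 12 among the 345. This SE and p, like those of every comparison here, rest on the spread between rats within an organ. They do not measure the spread between organs of a class. Mean log2 levels of miR-128 ran from 9.27 to 13.07 over the CNS organs and from 4.18 to 11.17 over those outside.

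The levels of miR-132, miR-137 and miR-138 did not overlap between the classes. The share of all tested miRNAs without such overlap was not counted. These miRNAs entered the test only through the CNS or the organs kept apart, so the lack of overlap is a description. miR-132 ranged from 53.0 to 1251 in the CNS and reached 44.5 outside, where it was detected on 2 of 126 arrays. The difference was 4.45 ± 0.061 (SE) on the log2 scale (adjusted p = 2.76e-95). miR-137 ranged from 42.4 to 539 in the CNS and reached 11.6 outside, with a log2 difference of 3.96 ± 0.048 (SE, adjusted p = 6.21e-101) and detection on 1 of 126 arrays outside. For these miRNAs nearly every signal outside was at the floor, so the size of the difference follows from the floor, whereas its direction does not. miR-138 ranged from 55.1 to 379 in the CNS and reached 34.7 outside, with a log2 difference of 3.81 ± 0.042 (SE, adjusted p = 4.33e-105) and detection on 5 of 126 arrays outside.

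miR-153 and miR-212, the members detected on the fewest arrays, also lay mostly at the floor outside, on 118 and 93 of 126 arrays. The size of their differences therefore follows from the floor as well. miR-153 was detected on 17 of 24 CNS arrays and 4 of 126 outside, with a log2 difference of 2.45 ± 0.052 (SE, adjusted p = 4.88e-75). miR-212 was detected on 19 of 24 CNS arrays and 8 of 126 outside, with a log2 difference of 1.25 ± 0.068 (SE, adjusted p = 4.76e-35). Both overlapped: the CNS arrays went down to the floor, and the highest arrays outside reached 34.2 for miR-153 and 579 for miR-212. For miR-212 the direction did not hold under every alternative. With a normexp background on spot medians and an added offset of 50 the log2 difference was -0.094 (adjusted p = 0.444). That alternative changed the spot statistic and the offset along with the scanner's own correction, and the part of each was not tested. Within each of the 6 slides that carried both classes the 6 differences were positive, from 0.77 for miR-153 to 6.29 for miR-128 at the extremes.

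**Figure D1:**
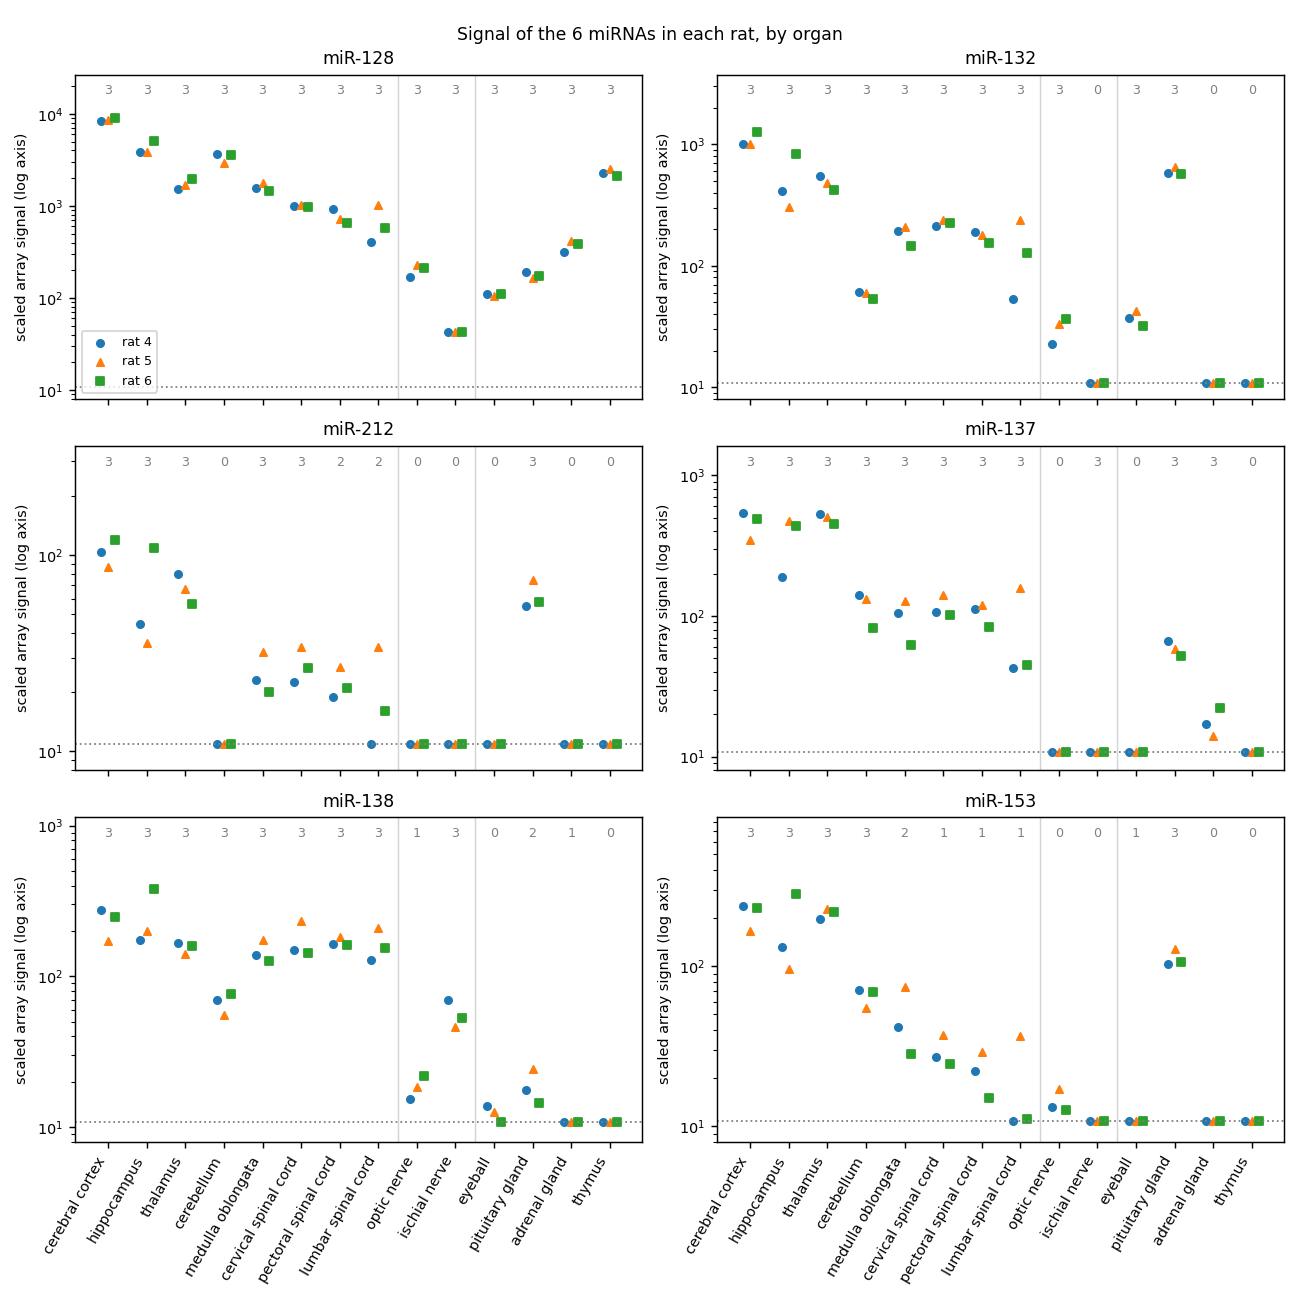
Scaled signal (log axis) of each miRNA in rats 4, 5 and 6 (circle, triangle and square) by organ, with the floor of 10.8 as a dotted line and the number of rats with a detected signal at the top of each column. miR-128 lay at 8371 to 8912 in the cerebral cortex, at 408 to 1015 in the lumbar cord and as high as 2514 in the thymus, where the other 5 lay at the floor.

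Within the CNS the organs differed for 6 of 6 members (limma F test over the 8 organs, highest adjusted p = 2.16e-20), against 61.2% of all miRNAs tested. With the authors' table only miR-128 and miR-153 were called in this test, and with the normexp background miR-138 was not (adjusted p = 0.0961). For miR-128 the cerebral cortex had 8371 in rat 4, 8473 in rat 5 and 8912 in rat 6, the highest levels of all 55 organs in each rat. The hippocampus followed with 3826, 3813 and 5035, and the cerebellum with 3652, 2945 and 3534, each organ clear of the next with the scaling above. The place of the cerebellum depended on that scaling: with scaling over all miRNAs its mean log2 level was 11.70 against 10.99 in the hippocampus, and the authors' values gave 12.38 against 12.01, so that it came second. The thalamus had 1511, 1684 and 1949 and the medulla oblongata 1551, 1772 and 1454, overlapping each other. The cord lay lowest, with 999, 1028 and 971 in its cervical, 921, 724 and 653 in its pectoral and 408, 1015 and 572 in its lumbar part, and the ratio of the highest to the lowest organ mean was 12.9.

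By organ means miR-132 ranged over a ratio of 18.9 within the CNS, from the cerebral cortex down to the cerebellum. The cortex had 998, 1009 and 1251 in rats 4, 5 and 6, and the cerebellum 60.4, 59.3 and 53.0. Between these lay the hippocampus at 415, 307 and 831, the thalamus at 549.6, 480.5 and 417, the cervical cord at 211.6, 237 and 226, the medulla at 192, 209 and 146 and the pectoral cord at 191, 178 and 154. The lumbar cord spread from 53.4 in rat 4 to 240.0 in rat 5 and overlapped the cerebellum. The cortex was clear of the hippocampus, the thalamus of the cervical cord and the cervical cord of the medulla, while hippocampus and thalamus overlapped. Rat by rat the ratio of the highest to the lowest CNS organ was 18.7, 17.0 and 23.6 for miR-132, against 21.9, 7.85 and 25.6 for miR-153, whose lowest organ lay at the floor in rat 4 and next to it in rat 6, so that no member had the widest span in every rat.

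miR-212, which shares its seed and its locus with miR-132, had nearly the same order of CNS organ means, with thalamus and hippocampus again overlapping. It stood at 104, 87.4 and 119.9 in the cortex, at 80.5, 66.9 and 56.6 in the thalamus and at 44.6, 35.6 and 109 in the hippocampus. The cervical cord had 22.6, 34.0 and 26.5 and the medulla 23.1, 32.2 and 20.0. In the cerebellum it was not well above background in any of the 3 rats. Over the 8 CNS organs the mean log2 levels of miR-132 and miR-212 correlated at Pearson r = 0.992, a description over organs that share rats and slides. Over all 55 organs the correlation was 0.571, which includes scaled signals of miR-212 on arrays that did not detect it. The mature sequences are identical at 17 of 22 positions. The authors caution that arrays do not fully exclude cross-hybridization between closely similar miRNAs. Its part in the likeness of miR-132 and miR-212 was not tested.

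miR-137 was highest in the forebrain, with 532, 509 and 451 in the thalamus, 539, 346 and 488 in the cortex and 190.2, 470.3 and 436 in the hippocampus, 3 organs that overlapped. The cerebellum had 141, 132 and 82.8 and the cervical cord 107, 141 and 101. These levels also overlapped with the pectoral cord at 111, 119 and 84.0, the medulla at 106, 127 and 61.9 and the lumbar cord at 42.4, 159 and 44.9.

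miR-138 was the most even member, with a ratio of 3.76 between the highest and the lowest CNS organ mean. The hippocampus had 175, 199 and 379, the cortex 275, 171 and 246 and the cervical cord 150.0, 234 and 144. The cerebellum alone stood below the rest, with 69.2, 55.1 and 76.0, while the thalamus, medulla, pectoral and lumbar cord lay between 127 and 210.1 and overlapped. With scaling over all miRNAs the mean log2 level was 6.03 in the cerebellum and 5.84 in the thalamus, so that the cerebellum was then not the lowest.

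miR-153 fell most steeply toward the cord. The thalamus had 198, 228 and 218, the cortex 237, 166 and 229.8 and the hippocampus 133, 96.4 and 284. The cerebellum had 71.3, 55.0 and 68.6, below these 3 organs in each rat. In the medulla it was detected in 2 of 3 rats at 41.8, 73.7 and 28.2, and in each part of the cord in 1 of 3 rats, with the highest level 37.0 in the cervical cord.

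Forebrain (cortex, hippocampus and thalamus) was compared with spinal cord, and 6 of 6 members were higher in the forebrain, against 29.6% of all miRNAs tested. The median log2 difference over the members was 2.05 and that over all miRNAs was 0. miR-153 had the largest difference of all 345, at 3.13 ± 0.11 (SE, adjusted p = 1.08e-51). It was detected on 3 of 9 cord arrays, so this size and rank hold for the scaling and floor used here. It entered the test only through organs other than the cord, so its call adds no weight to the count. The difference of miR-153 ran from 1.66 to 3.61 over the alternatives and was called under each of them. miR-128 differed by 2.34 ± 0.14 (SE), miR-137 by 2.19 ± 0.10 (SE), miR-132 by 1.91 ± 0.13 (SE) and miR-212 by 1.71 ± 0.14 (SE), the highest of these 4 adjusted p being 1.47e-20. miR-138 differed by 0.28 ± 0.089 (SE, adjusted p = 0.00502), and that call was lost under 8 of 19 alternatives. These were leaving out rat 4 (0.19, adjusted p = 0.240) or rat 6 (0.076, adjusted p = 0.708), scaling over all miRNAs (0.087), quantile normalization (0.15), the authors' table (0.073), a floor 4 times as low, the normexp background (0.21) and spot medians (0.18), with adjusted p from 0.141 to 0.917. In the authors' table the difference of miR-212 was 1.65 and was not called either (adjusted p = 0.218). Of the other neural miRNAs 10 were higher in the forebrain and 3 lower. The markers of several cell types moved in the same comparison, and their part in the differences was not tested. The neuronal markers summed to 10525 to 16274 in the forebrain and 2213 to 9530 in the cord, and those of myelinating glia (miR-219-5p, miR-219-2-3p, miR-338 and miR-338*) to 1274 to 5246 and 4338 to 7541. The blood markers miR-451 and miR-144 lay at their floor sum of 21.7 in the forebrain and at 22.4 to 849 in the cord, and the striated muscle markers miR-1, miR-133a and miR-133b at 35.0 to 73.7 and 225 to 681. The leukocyte markers (miR-142-3p, miR-142-5p, miR-150 and miR-223) summed to 213 to 381 in the forebrain and 372 to 912 in the cord.

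The cerebral cortex was higher than the cerebellum for 6 of 6 members, against 27.5% of all miRNAs. miR-132 had a log2 difference of 4.23 ± 0.22 (SE, adjusted p = 8.19e-35), ranking 2 among the 345, and the lowest cortex array (998) was far above the highest cerebellum array (60.4). miR-212 was at least 9.49-fold higher in the cortex (adjusted p = 1.32e-22), a bound because no cerebellum array detected it, and one that holds for the scaling and floor used here. The log2 difference of 3.25 behind it ran from 1.25 to 4.89 over the alternatives and was called under each of them. miR-212 entered the test only through organs other than the cerebellum, so its call adds no weight to the count. miR-137 differed by 1.96 ± 0.18 (SE), miR-138 by 1.77 ± 0.15 (SE), miR-153 by 1.69 ± 0.19 (SE) and miR-128 by 1.35 ± 0.23 (SE, adjusted p = 4.20e-07), without overlap between the rats of the organs. The share of all miRNAs without overlap in this comparison was not counted. The neuronal markers summed to 13502 to 16274 in the cortex and 17288 to 21596 in the cerebellum, where miR-124 was called higher (9756 to 13265 against 6252 to 6961). miR-9 had 2650 to 3201 in the cerebellum and 3058 to 4722 in the cortex and was not called (adjusted p = 0.105), nor was miR-9* (adjusted p = 0.328). The leukocyte markers summed to 300.1 to 378 in the cortex and 181 to 222 in the cerebellum, with miR-223 called higher in the cortex (0.88, adjusted p = 0.00839), and the part of these markers in the differences was not tested. With scaling over all miRNAs the difference of miR-128 fell by 0.88 to 0.47 and was not called (adjusted p = 0.142), and the authors' table called 2 of the 6. Of the other neural miRNAs 4 were higher in the cortex and 2 lower.

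Against the thalamus the cortex was higher for 3 members, where 4.06% of all miRNAs were called higher. miR-128 had the largest difference of the 345 at 2.33 ± 0.23 (SE, adjusted p = 1.10e-15), miR-132 differed by 1.17 ± 0.22 (SE, adjusted p = 7.25e-06) and miR-138 by 0.54 ± 0.15 (SE, adjusted p = 0.00398). The difference of miR-212 was 0.61 ± 0.25 (SE, adjusted p = 0.0617), that of miR-137 was -0.14 and that of miR-153 was -0.039. The call of miR-138 was lost under 5 of 19 alternatives, among them leaving out rat 4 (0.45, adjusted p = 0.151). Over the 19 its difference ran from 0.37 to 1.09. Scaling over all miRNAs moved every difference up by 0.55, so that all 6 members were called higher, miR-137 at 0.40 and miR-153 at 0.51, whereas the authors' table and the normexp background called 1 member each. In the authors' table the differences of miR-132 and miR-138 were nevertheless no smaller than those above. Its mean log2 levels in cortex and thalamus were 10.18 and 8.50 for miR-132 and 7.92 and 6.88 for miR-138. Of the neuronal markers miR-124 (0.69) and miR-9 (0.63) were called higher in the cortex and, of the glial ones, miR-219-2-3p (-0.87) and miR-219-5p (-0.82) lower, and their part was not tested.

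Between hippocampus and cortex 3 members were lower in the hippocampus, where 3.48% of all miRNAs were called lower. These were miR-132 at -1.19 ± 0.22 (SE, adjusted p = 3.18e-05), miR-128 at -1.04 ± 0.23 (SE, adjusted p = 9.00e-04) and miR-212 at -0.88 ± 0.25 (SE, adjusted p = 0.0127). miR-153 at -0.44, miR-137 at -0.41 and miR-138 at 0.062 were not called. The calls turned on single rats: miR-128 lost its call without rat 5 (-0.98, adjusted p = 0.0502), miR-212 without rat 4 (-0.72, adjusted p = 0.314) or rat 5 (-0.68, adjusted p = 0.230), and miR-137 became lower without rat 5 (-0.83, adjusted p = 2.88e-04) and higher in value without rat 4 (0.14). miR-153 became lower without rat 6 (-0.81, adjusted p = 0.0148), and neither the authors' table nor the normexp background called any member. In the authors' table the differences of miR-128, miR-132 and miR-212 were nevertheless no smaller than those above. Its mean log2 levels in hippocampus and cortex were 12.01 and 13.17 for miR-128, 8.86 and 10.18 for miR-132 and 5.78 and 6.78 for miR-212. In the hippocampus miR-124 was called lower (-0.42, adjusted p = 0.0408) and the glial markers miR-219-2-3p (1.16) and miR-219-5p (1.05) higher, and their part was not tested.

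Medulla oblongata and cervical cord differed for 1 member, miR-153, higher in the medulla by 0.61 ± 0.19 (SE, adjusted p = 0.0342), where 4.64% of all miRNAs were called higher. It was detected in 2 of 3 medulla and 1 of 3 cord arrays, and the call was lost under 8 of 19 alternatives. These were leaving out rat 4 (0.59, adjusted p = 0.619), rat 5 (0.41, adjusted p = 0.249) or the 8 arrays with 2 rat numbers (0.41, adjusted p = 0.203), the authors' table, the higher and the lower floor, the normexp background and no filter. miR-128 had a difference of 0.67 ± 0.23 (SE, adjusted p = 0.0796). The neuronal markers summed to 7913 to 11134 in the medulla and 6440 to 9130 in the cervical cord, with miR-124 called higher in the medulla (0.71, adjusted p = 4.19e-05). Those of myelinating glia summed to 4703 to 6096 and 6594 to 7454, and the part of these markers was not tested.

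**Figure D2:**
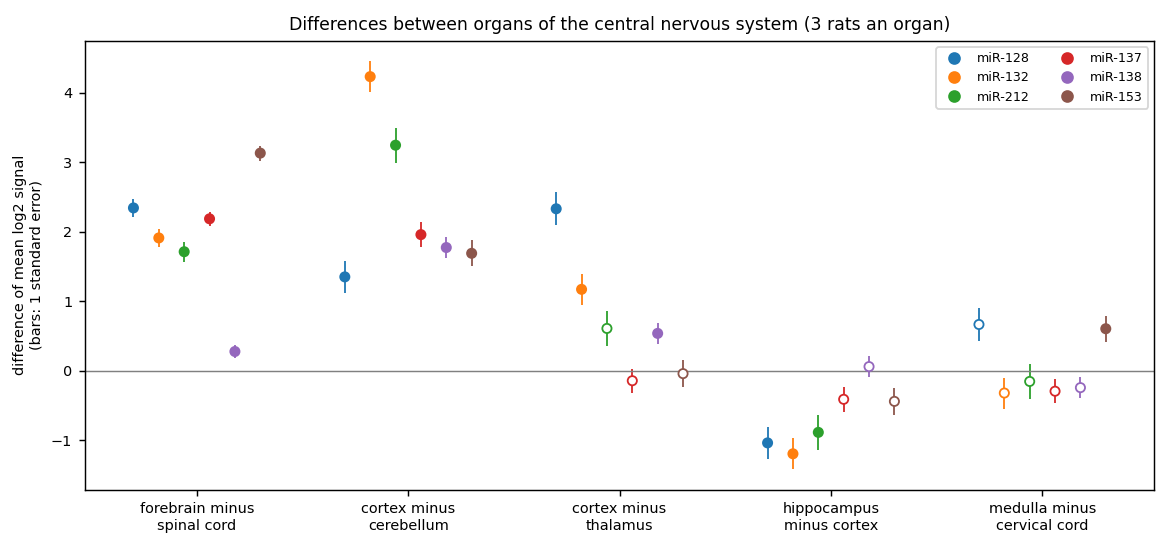
Difference of mean log2 signal between CNS organs for each miRNA, with bars of 1 standard error and 3 rats per organ. Filled points passed an adjusted p of 0.05 and open points did not: miR-132 lies highest in the comparison of cortex with cerebellum (4.23) and miR-153 in that of forebrain with spinal cord (3.13).

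Some CNS samples stood apart from the other rats. In the lumbar cord of rat 4 the neuronal markers summed to 2213, against 9530 in rat 5 and 6165 in rat 6, and the blood markers to 849, against 153 and 63.8. There all 6 members were lowest of the 3 rats. The lumbar array titled rat 5, whose source name gives rat 6, had 1.36 to 3.54 times the median rat, at the extremes for miR-138 and miR-137. Without the lumbar cord and optic nerve arrays of rat 4, a choice made after seeing these values, forebrain was still higher than cord for 6 members, with differences from 0.22 for miR-138 (adjusted p = 0.0312) to 3.03 for miR-153.

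The hippocampus of rat 6 had 2.00 times the median rat for miR-132, 2.43 for miR-212, 1.91 for miR-138 and 2.14 for miR-153. For miR-128 it had 1.32 times, and for miR-137 it was itself the median rat. Its neuronal markers summed to 11907, the lowest of a narrow range that ended at 12507. In rat 4 the hippocampus had 0.44 times the median rat for miR-137, and in rat 5 the markers of myelinating glia summed to 1634, against 5246 and 4111 in the other two. The part of tissue composition in these differences was not tested.

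**Figure D3:**
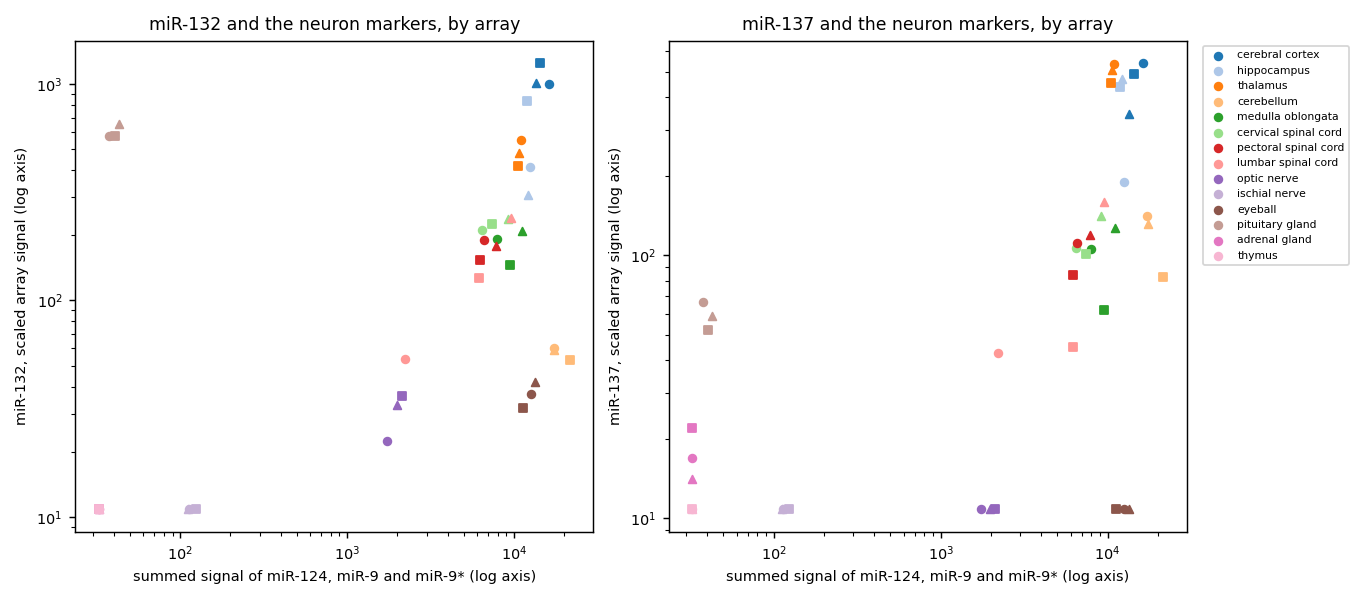
Scaled signal of miR-132 (left) and miR-137 (right) against the summed signal of miR-124, miR-9 and miR-9* on each array of the organs named in the legend, both on log axes, with the same rat symbols as above. The pituitary gland lies high on the left (miR-132 at 573 to 656 with a marker sum of 37.7 to 42.8), and the cerebellum and eyeball lie low on the right.

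The nerves hold axons and glia without most neuronal cell bodies. miR-128 was detected in both, at 167, 231 and 214 in the optic nerve and 42.3, 42.6 and 42.5 in the ischial nerve, and was higher in the optic nerve by 2.25 ± 0.23 (SE) on the log2 scale (adjusted p = 3.97e-15). miR-132 was at 22.5, 33.0 and 36.1 in the optic nerve and in no rat well above background in the ischial nerve, at least 2.76-fold higher with the floor used here (adjusted p = 1.12e-08). With a floor 4 times as high both nerves lay at the floor and the call was lost (adjusted p = 1). miR-138 ran the other way, with 15.4, 18.4 and 21.7 in the optic nerve (detected in 1 rat) and 70.1, 45.8 and 52.8 in the ischial nerve, a log2 difference of -1.60 ± 0.15 (SE, adjusted p = 9.64e-17). Thus 2 members were called higher, where 22.3% of all miRNAs were, and 1 lower, where 13.6% were. The neuronal markers summed to 1743 to 2117 in the optic and 112 to 124 in the ischial nerve, and those of myelinating glia to 3804 to 5708 and 2561 to 2684. Their part in these differences was not tested. With the normexp background the difference of miR-138 was 0.10 and not called, and in the authors' table it was -1.97 (adjusted p = 0.0769).

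The optic nerve of rat 4 carried the striated muscle markers at a sum of 4852, against 32.5 and 34.8 in the other rats, and had the lowest miR-128, miR-132 and miR-138 of the 3. Without that array and the lumbar array of rat 4 the differences were 2.39 for miR-128, 1.67 for miR-132 and -1.47 for miR-138, and all 3 calls held. miR-137 had no signal above the floor in either nerve, although the scanner's flags counted it as detected in 3 of 3 ischial nerves and 0 of 3 optic nerves. miR-212 and miR-153 were detected in neither nerve.

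In the pituitary gland 6 of 6 members were called higher than in the organs outside the nervous system, against 37.4% of all miRNAs. As for the CNS, the members other than miR-128 entered the test only through the CNS or the organs kept apart. The count therefore describes them and adds no weight. miR-132 was at 575, 656 and 573, next to the cortex in the order of organ means and overlapping the hippocampus, with a log2 difference of 5.76 ± 0.16 (SE, adjusted p = 3.58e-62). miR-212 had 54.9, 74.6 and 57.7 and a difference of 2.19 ± 0.18 (SE), miR-153 had 103, 127 and 106 and 3.31 ± 0.14 (SE), and miR-137 had 66.5, 58.6 and 52.0 and 2.44 ± 0.13 (SE). These 4 were detected in all 3 rats. Few arrays outside detected them, at most 8 of 126 for miR-212, so the sizes of these differences follow from the floor. Over the alternatives the difference ran from 2.87 to 10.57 for miR-132 and from 0.90 to 8.02 for miR-153. With the normexp background the differences of miR-212 (0.29, adjusted p = 0.393) and miR-137 (0.35, adjusted p = 0.321) were not called. Of the neuronal markers miR-124 was detected in no pituitary gland, miR-9 in 2 of 3 at 10.8, 16.0 and 10.8 in rats 4, 5 and 6, and miR-9* in 3 of 3 at 16.1, 16.0 and 18.9. Epithelial markers (miR-200a, miR-200b, miR-200c and miR-141) summed to 3421 to 4185 there.

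The calls of miR-128 and miR-138 in the pituitary were lost under more alternatives, 3 of 20 and 4 of 19, against 1 of 19 each for miR-212 and miR-137 and 0 for miR-132 and miR-153. miR-128 had 192, 165.03 and 175 and a difference of 1.53 ± 0.17 (SE, adjusted p = 1.16e-14), but within the 3 slides with both kinds of organ the log2 difference was -1.16 to -0.80, where the arrays of organs outside the nervous system were all of skeletal muscle. With scaling over all miRNAs the difference was 0.25 (adjusted p = 0.175). miR-138 had 17.6, 24.2 and 14.4 (detected in 2 rats) and a difference of 0.71 ± 0.11 (SE), which was -0.0095 with scaling over all miRNAs and -0.33 with the normexp background, neither of them called. It was not called with quantile normalization or the higher floor either, nor was miR-128 in the authors' table (0.66, adjusted p = 0.0534) or with normexp (0.42, adjusted p = 0.111).

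The adrenal gland, whose medulla holds neurosecretory cells, had miR-128 at 318, 411 and 382, higher than the organs outside by 2.58 ± 0.17 (SE, adjusted p = 1.91e-28). It also had miR-137 at 16.9, 14.1 and 22.0, detected in 3 of 3 rats and higher by 0.68 ± 0.13 (SE, adjusted p = 8.87e-07), a size set by the floor because 1 of 126 arrays outside detected it. The call was lost under 3 of 19 alternatives, normexp (-0.57), quantile normalization (0.19) and the higher floor, and with undetected arrays raised to the lowest detected signal of their array the difference was 0.14. miR-128 and miR-137 were the 2 members called higher in the adrenal gland, where 24.3% of all miRNAs were, and the neuronal markers lay at the floor in the gland. Of the glial markers miR-219-5p was called higher (2.48, adjusted p = 3.11e-22) and miR-338 lower (-0.93, adjusted p = 0.00101). Of the other neural miRNAs 5 of 13 were higher and 2 lower, and the part of these markers was not tested.

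In the eyeball, which contains the retina, the neuronal markers summed to 11298 to 13378, overlapping the range of the hippocampus. The striated muscle markers summed to 979 to 4098 and the epithelial ones to 789 to 1002, with miR-1 (2.15, adjusted p = 0.0103) and miR-133b (2.23, adjusted p = 0.00482) called higher than in the organs outside, and their part in the values below was not tested. Of the 6 members 2 were called higher than the organs outside, miR-132 at 37.1, 42.0 and 31.7 and miR-128 at 109, 105 and 111, a share near the 32.8% of all miRNAs called higher. The log2 differences were 1.73 ± 0.16 (SE, adjusted p = 2.55e-18) and 0.82 ± 0.17 (SE, adjusted p = 1.11e-05), the former set by the floor because miR-132 was detected on 2 of 126 arrays outside. miR-132 was not called with the higher floor (-0.00029) or with normexp (0.50, adjusted p = 0.394). miR-128 was not called under 4 of 20 alternatives, at -0.18 with scaling over all miRNAs, 0.27 with quantile normalization, 0.12 in the authors' table and 0.20 with normexp. miR-137 and miR-212 were detected in no eyeball.

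Outside the nervous system miR-128 was highest in the thymus, at 2303, 2514 and 2109 in rats 4, 5 and 6, a mean of 2309 ± 203 (SD, n = 3). This was above every thalamus and medulla array and below every cerebellum array. Against the other 41 organs outside the nervous system the log2 difference was 5.36 ± 0.17 (SE, adjusted p = 1.83e-56), ranking 6 among the 345, where 27.2% were called higher, and it ranged from 3.90 to 5.67 over the alternatives. Against the lymph nodes, spleen and bone marrow, which had 111 to 216, the difference was 3.80 ± 0.19 (SE, adjusted p = 4.58e-38), where 23.5% were called higher, with a range of 3.10 to 4.13. The cervical lymph node of rat 4 had epithelial markers at 3156, against 44.7 and 46.8 in rats 5 and 6, and the lowest miR-128 of that organ (149 against 205 and 216). Without that array and the cecum and colon arrays of rat 4, a choice made after seeing these values, the difference was 3.76 (adjusted p = 8.77e-38). The other 5 members were detected in no thymus, and the neuronal markers lay at the floor there. Leukocyte markers summed to 31011 to 41439 in the thymus and 15654 to 33351 in the lymph nodes, spleen and bone marrow. The epithelial markers summed to 470 to 620 in the thymus and, save for the cervical node of rat 4, to 43.3 to 49.1 in those organs. The blood markers summed to 31.0 to 64.1 in the thymus, 4635 to 7770 in the spleen and 21313 to 35528 in the bone marrow. Their part in the difference of miR-128 was not tested.

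**Figure D4:**
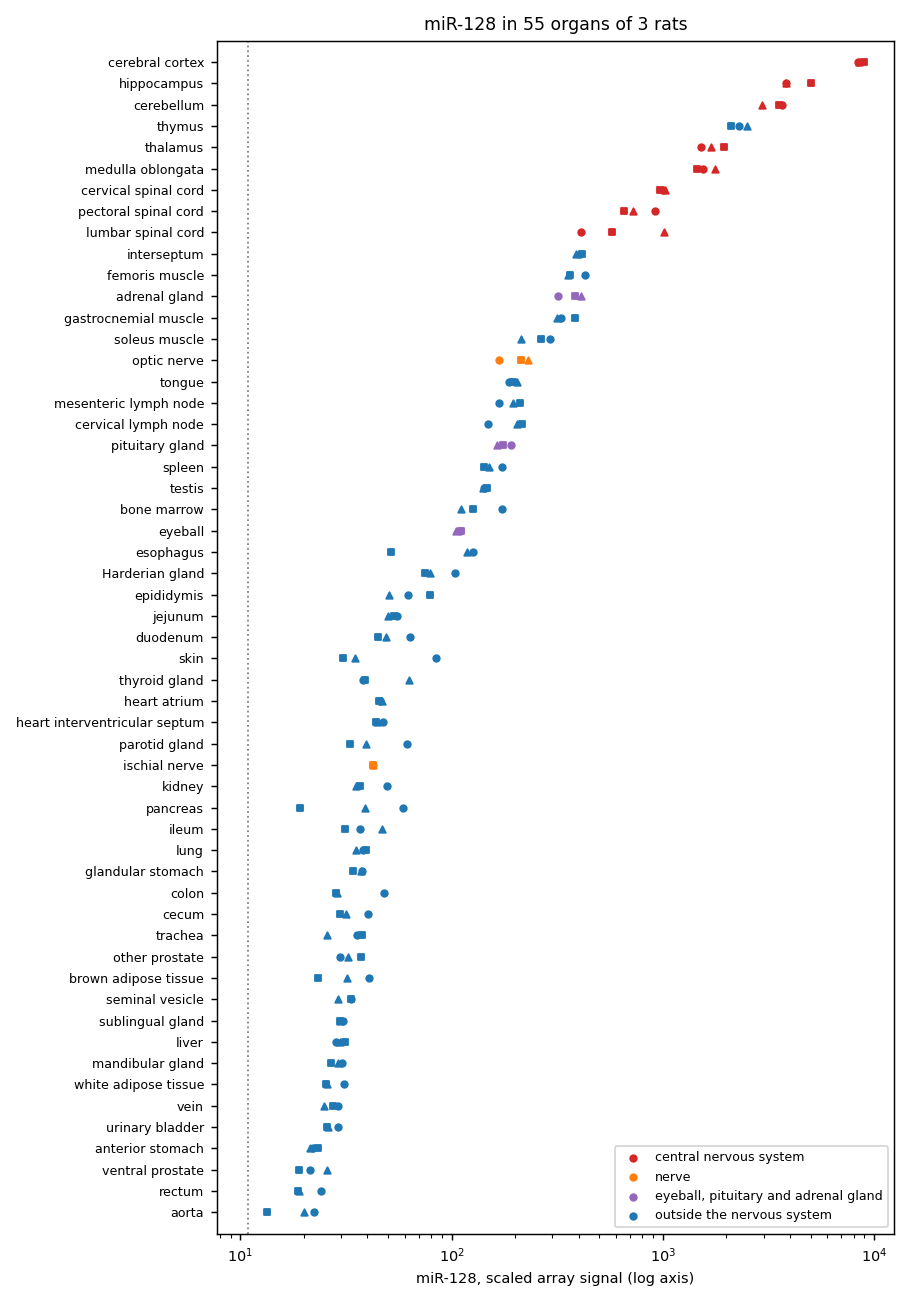
Scaled signal of miR-128 (log axis) in each of 55 organs, ordered by organ mean, with rats 4, 5 and 6 as circle, triangle and square and the floor as a dotted line. The thymus is the only organ outside the nervous system among the 9 highest, and the aorta, at 13.3 to 22.3, is the lowest.

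After the thymus came the interseptum at 406, 388 and 413, with the thymus mean 5.74 times its mean. The skeletal muscles followed, the femoris at 429, 356 and 365, the gastrocnemial muscle at 331, 315 and 385 and the soleus at 293, 213 and 266, and the tongue had 187, 205 and 196. The femoris overlapped both the interseptum and the gastrocnemial muscle, so these neighbours could not be told apart beyond the spread of their rats. Heart muscle was lower, with 45.9, 46.8 and 45.5 in the atrium and 47.1, 44.3 and 43.7 in the interventricular septum. The testis had 142, 141 and 147, while liver and pancreas detected miR-128 in no rat and the ventral prostate in 1 of 3.

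A few sites outside the nervous system carried other members. The pancreas had the highest scaled miR-212 of all organs, at 307, 579 and 504, but only 1 of 3 arrays detected it. The pancreas arrays were the dimmest, with scaling factors of 17.5, 23.4 and 31.1, and before scaling the brighter miR-212 probe read 28.9, 40.7 and 26.5 there, against 144, 135 and 157 in the cortex. The duodenum had 61.1, 45.6 and 74.9, detected in 1 rat.

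miR-153 in the glandular stomach was even between rats, at 33.1, 31.0 and 34.2, yet was detected in 1 rat. Its dimmer probe read 7.19 to 9.78 after scaling there, against 46.1 to 67.2 in the thalamus. miR-138 in the testis had 34.7, 18.8 and 32.1, detected in 1 rat. It was also detected on 3 of 12 arrays of lymph nodes, spleen and bone marrow, whose mean log2 level was 3.47. miR-132 was detected in the cecum (44.5) and colon (28.1) of rat 4 but of no other rat. The leukocyte markers on those arrays summed to 5487 and 4599, against 2406 and 2635 in the cecum and 1800 and 1666 in the colon of rats 5 and 6. The epithelial markers of the cecum summed to 5340 in rat 4, against 12511 and 14794. Their part in the detection was not tested. These levels are therefore given as values only.

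The miRNAs whose organ means most resembled a member were named by the Pearson correlation of mean log2 levels over the 55 organs, a description in which many organs share the floor. For miR-132 they were miR-551b (r = 0.983), miR-323 (0.979) and miR-543* (0.958), and for miR-137 miR-543* (0.983), miR-496_v15.0 (0.973) and miR-323 (0.971). For miR-138 they were miR-496_v15.0 (0.927), miR-137 (0.918) and miR-380* (0.899), and for miR-153 miR-344a-3p (0.947), miR-487b_v15.0 (0.942) and miR-323 (0.928). miR-212 was nearest to miR-667 (0.909), miR-770* (0.820) and miR-300-5p (0.802), ahead of miR-132. Of the 126 arrays outside the nervous system 8 detected miR-212, while 93 lay at the floor. Undetected signals above the floor, scaled up on dim arrays such as those of the pancreas, enter its likeness, and their part was not tested. miR-128 had the weakest likeness of the members, with miR-137 (0.778), miR-543* (0.768) and miR-598-3p (0.762).

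The opposite strands of the same hairpins were scarcely seen. miR-128-1*, miR-128-2*, miR-138-1* and miR-153* were detected on 0 of 180 arrays. miR-138-2* was detected on 5 arrays, all of the CNS, miR-137* on 2, both of the hippocampus, miR-212* on 2, both of the pituitary gland, and miR-132* on 1, in the cortex.

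Perfusion was compared in the 5 organs taken from both sets of rats, to see whether remaining blood changed the levels. Of the members only miR-128 passed the detection filter there. In the heart atrium it was at 45.9, 46.8 and 45.5 in perfused and 37.1, 51.9 and 51.2 in unperfused rats. The log2 differences, perfused minus not, were -0.11 in the lung, -0.0037 in the atrium, 0.010 in the kidney, 0.070 in the interventricular septum and 0.14 in the liver, each with a standard error of 0.12 and an adjusted p of 1. The value in the liver rests on signals that no array detected, at 28.3 to 31.4 in perfused and 25.2 to 28.9 in unperfused rats. limma called 0 of 191 miRNAs (0%) in each of the 5 organs. The authors saw the blood markers miR-451 and miR-144 in unperfused samples of these organs and not in perfused ones. They found most other miRNAs little affected. The lack of calls, with 3 rats on each side, therefore does not show that remaining blood was without effect. Without adjustment, 12 miRNAs in the lung, 11 in the liver, 4 each in kidney and atrium and 3 in the septum had a p under 0.05. The difference between organs in this effect was not called for miR-128 (adjusted p = 1). Under the alternatives at most 5 of the 191 miRNAs were called in an organ, in the liver with the higher floor. Without rat 6 the liver had 4, and the authors' table called 2 in the liver, 2 in the atrium and 1 in the septum.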

How the data were processed

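RNA of 180 organ samples was labelled with Cy3 by the authors and hybridised, one sample to an array, to a customized Agilent rat miRNA array on 23 slides scanned over 3 days. The deposited scanner files hold fluorescence intensity per spot, background-corrected by the scanner software, Agilent Feature Extraction 10.7.3 per the submitters' processing notes. The scanner's outlier and detection flags, 0 or 1 per spot and of no other unit, were used as deposited by the authors. The deposited series table holds intensity per miRNA that the authors scaled to the 75th percentile of each array, and it holds 344 of the 345 miRNAs tested, so it served as an alternative.

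From the files, outlier and control spots were left out, and spots were averaged per probe and probes per miRNA. A miRNA was detected where more than 50% of its remaining spots carried the flag. Arrays were scaled on the 37 miRNAs detected on all of them, floored at 10.8 and taken to log2. limma 3.58.1 (R 4.3.3) fitted 1 term per organ over the 55 organs of perfused rats, for 345 miRNAs detected on all 3 arrays of an organ, and over 30 arrays for perfusion (191 miRNAs), with Benjamini-Hochberg adjustment and a call at 0.05, two-sided. A test on simulated data called 84% of 50 miRNAs changed by 0.25 (log2) between CNS and outside, and 74% of 50 changed by 0.5 between cortex and cerebellum. Whether these shares hold for miRNAs at the floor, or for arrays that share a rat or a slide, was not tested.

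Arrays of a rat share their animal. Deviations from the organ mean correlated at 0.0496 within and -0.0327 between rats, and the rat was tried as a block, as were slide and scan day. The other alternatives were other scaling, the authors' table, other floors, a normexp background on spot medians, spot medians, other filters, unperfused rats added, and leaving out each rat, the 8 arrays with 2 rat numbers or, chosen after seeing the data, 2 sets of arrays of rat 4 whose markers stood apart. The named miRNAs are the members, the opposite strands of their hairpins, miRNAs that share a seed, and for each member the 3 most alike. Members, marker lists and tests were chosen with earlier results of these data known.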

Additional observations from a re-analysis of the deposited data

How the results depend on the processing

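Of 572 counts of called members under an alternative, 491 equalled the reported count, 35 differed by at most 1.5 times and 46 by more. The rat as a replicate block (consensus correlation 0.00584) left 6 members higher in the CNS and changed no call of a member. Over all miRNAs it moved the number called slightly, for the nerves from 124 to 128. Both thymus differences of miR-128 stayed positive and called under every alternative run. Scaling over all miRNAs shifted miR-128 by -1.04 between CNS and outside and by 0.55 between cortex and thalamus, and the median of all miRNAs between CNS and outside was -0.26 with it, -0.21 with quantile normalization, -0.93 in the authors' table and -0.69 with normexp. With the filter set to detection on 50% of the arrays only miR-128 could be tested, so the counts were 1 in the comparisons of CNS with outside, forebrain with cord, cortex with cerebellum and with thalamus, hippocampus with cortex, optic nerve (higher), pituitary, adrenal, eyeball and among the CNS organs, and 0 for medulla and optic nerve (lower).

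The counts of called members moved by over 1.5 times as follows, and the cause was not tested. Scaling over all miRNAs gave 6 higher in cortex over thalamus, 5 lower in hippocampus and 1 higher in the eyeball. Quantile normalization gave 2 higher in the medulla and 1 each in adrenal and eyeball. The authors' table gave 2 for cortex over cerebellum, 1 for cortex over thalamus, 0 for hippocampus, 0 for medulla, 5 higher in the adrenal, 1 lower in the eyeball and 2 among the CNS organs. Normexp gave 1 for cortex over thalamus, 0 for hippocampus and medulla, 5 higher and 0 lower in the optic nerve, 2 in the pituitary, 1 higher and 4 lower in the adrenal and 0 in the eyeball. A floor 4 times as high gave 1 each in optic nerve, adrenal and eyeball, and one 4 times as low gave 0 in the medulla, 2 in the thymus, 4 in the adrenal and 5 in the eyeball. No filter gave 0 in the medulla, and leaving out the 8 arrays with 2 rat numbers gave 5 lower in hippocampus and 0 in the medulla. Without single rats the count in the medulla went from 0 to 1. Smaller losses from 6 members were to 5 with normexp for CNS over outside and among the CNS organs, to 5 with scaling over all miRNAs for cortex over cerebellum, and in the pituitary to 4 with scaling over all miRNAs and 5 with quantile normalization, the authors' table and the higher floor. Forebrain over cord fell to 4 in the authors' table and to 5 with scaling over all miRNAs, quantile normalization, the lower floor, normexp, spot medians, and without rat 4 or rat 6. The other smaller moves, from 3 to 2 or 4 in cortex over thalamus and hippocampus and from 2 to 3 in the optic nerve and eyeball, were of 1 member each.

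Single differences changed sign in these cases. For cortex minus thalamus, miR-137 was 0.40 with scaling over all miRNAs, 0.032 with quantile normalization and 0.36 in the authors' table, and miR-153 was 0.51, 0.38 and 0.47 with these and 0.75 with spot medians. For hippocampus minus cortex, miR-138 was -0.079 with scaling over all miRNAs, -0.059 in the authors' table and -0.067 with spot medians. For medulla minus cervical cord miR-138 was 0.087 with spot medians. Without single rats these differences ran from -0.27 to 0.066 (miR-137) and -0.19 to 0.17 (miR-153) for cortex minus thalamus, and from -0.83 to 0.14 (miR-137) and -0.22 to 0.42 (miR-138) for hippocampus minus cortex. With normexp the difference was -0.094 for miR-212 between CNS and outside, 0.10 for miR-138 between the nerves, -0.33 for miR-138 in the pituitary and -0.57 for miR-137 in the adrenal. With scaling over all miRNAs it was -0.0095 for miR-138 in the pituitary and -0.18 for miR-128 in the eyeball, and with the higher floor -0.00029 for miR-132 in the eyeball.

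For perfusion, miR-128 turned in the kidney to -0.84 (normexp) and -0.028 (slide as a random block), in the lung to 0.056 (scaling over all miRNAs), in the atrium to 0.023 (authors' table), 0.034 (normexp) and 0.0071 (slide), and in the septum to -0.0088 (higher floor). Without single rats the values ran from -0.14 to 0.10 in the kidney, -0.16 to 0.080 in the atrium and -0.041 to 0.14 in the septum, and none of these was called.

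Over all miRNAs, normexp lowered the number called from 132 to 47 for cortex and cerebellum, 85 to 5 for cortex and thalamus, 175 to 79 for forebrain and cord, 27 to 0 for hippocampus, 20 to 2 for medulla, 231 to 68 for the eyeball, 211 to 97 among the CNS organs and 224 to 97 for the thymus, and raised it from 124 to 265 for the nerves. The share of calls that were higher moved with scaling over all miRNAs from 72.0% to 25.4% for cortex over cerebellum, 16.5% to 62.8% for cortex over thalamus, 42.0% to 30.5% for CNS over outside, 48.9% to 24.1% for the eyeball, 45.6% to 29.5% for the pituitary and 64.8% to 36.3% for the thymus over lymphoid organs. The number of arrays, 3 per organ, and the signal over background of miR-212 and miR-153 limit the precision.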
